A study of Mus musculus and Mus spretus with 72 samples.

Results

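The ssp group is a set of house mice, Mus musculus, whose sub-species the labels leave unnamed, and its liver/kidney RNA was compared here with that of 2 named sub-species. The members are 18 of the 72 arrays of the series, chosen by title: 6 arrays of ssp, 6 of dom (Mus musculus domesticus) and 6 of mus (Mus musculus musculus), all from liver/kidney. Each array set RNA of 1 male, roughly 12 weeks old, against RNA of the same organ pooled from 9 mice of the laboratory strain C57BL6. The labels name no genotype, allele or treatment for any of the 3 groups, give no place of origin, and do not say how liver and kidney were combined. The series asks how far expression has diverged between house mouse populations.

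M. m. domesticus and M. m. musculus are the western and eastern European house mice, which separated recently and still meet and interbreed along a hybrid zone. The liver makes most plasma proteins, among them the serine protease inhibitors called serpins, and breaks down drugs and steroids, while the kidney filters blood and takes salts, urate and sugars back up in its tubules. Males of the house mouse also secrete major urinary proteins from the liver, carriers of scent signals that vary between individuals.

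A level below is the deposited log ratio of a mouse to the pool for one probe, taken as log2, as the mean of duplicate spots and relative to the array's median. The sources used here give neither the base nor the direction of the ratio; mouse over pool is likely, since channel 2 holds the mouse on every array, and all signs would turn together if it were inverted. A difference is ssp minus the other group on that log2 scale, ± its standard error (SE), from limma over 21499 probes. A probe was called at a Benjamini-Hochberg adjusted p under 0.05. Because each level is a ratio, levels of different genes cannot be set against each other, and defining markers of liver or kidney show no absolute level. In such a mixture of 2 organs, fewer cells of a type and less RNA per cell cannot be told apart. Between 43864 and 44332 of 46128 spots carried a value on each array, and duplicate spots correlated with r from 0.514 to 0.732. The 18 arrays shared 1 pattern of missing spots (lowest pairwise r 0.557), and no scan or print dates were used. Beyond group, sex, age and number the labels do not describe the animals, so p-values refer to these mice. They set a difference between groups against the spread between arrays, which holds both animal and array variation.

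Against dom, 237 probes were called (1.10% of those tested), 190 higher and 47 lower in ssp, and 64 of them by at least 1.5-fold. Against mus the count was 199 (0.926%), 136 higher and 63 lower, with 56 by at least 1.5-fold. Against the mean of dom and mus it was 343 (1.60%), 276 higher and 67 lower, with 36 by at least 1.5-fold. For 1.58% of probes all ssp arrays lay on one side of all dom arrays (above for 1.01%, below for 0.567%), and for 1.57% on one side of all mus arrays (above for 1.09%, below for 0.484%). These comparisons share the 6 ssp arrays, so their calls are not independent. The median SE of a probe's difference was 0.08 against either group and 0.07 against their mean. The counts depended on single arrays: leaving out ssp 03 gave 437, 334 and 618 calls against dom, mus and their mean, and the other arrays that moved a count by over 1.5 times are named at the end. Over all probes, each of the 6 ssp arrays had a higher median correlation with the mus arrays (0.324 to 0.429) than with the dom arrays (0.197 to 0.394), and among themselves the ssp arrays had a median of 0.420 over 15 pairs. All 18 arrays share the pool, which adds to every one of these correlations. The mean squared difference of group means, less the part due to spread between animals, was 0.0144 between ssp and dom (0.0120 to 0.0174 when 1 array was left out), 0.0125 between ssp and mus (0.0109 to 0.0149) and 0.00967 between mus and dom (0.00827 to 0.0118). The ranges of the 2 ssp distances overlap.

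Among the genes with the largest changes, Bcl11a, Gcsam, Ube2o, Lta and Olfr934 passed against dom and against mus, each taken alone; the first 2 were lower in ssp and the other 3 higher. Bcl11a encodes a transcription factor of lymphoid development and globin switching. Its level ran from -1.36 to -0.60 in ssp (median -0.86), against -0.35 to 0.14 in dom (median -0.26) and -0.26 to 0.07 in mus (median -0.17). All 6 ssp arrays lay below every dom array and below the 5 mus arrays with a value, mus 03 having none. The difference was -0.73 ± 0.12 from dom (limma adjusted p = 0.00570) and -0.78 ± 0.12 from mus (adjusted p = 0.00479), and both calls held in 18 of 18 runs that left out 1 array. A second Bcl11a probe gave 0.03 ± 0.10 and 0.20 ± 0.10 for these differences, so the 2 probes disagreed. Gcsam, an adaptor of germinal centre B cells, had levels from -1.67 to -1.22 in ssp (median -1.31), against -0.59 to -0.40 in dom (median -0.45) and -1.21 to -0.63 in mus (median -0.99). The ssp arrays were again the lowest of all, nearly meeting the lowest mus array, and mus lay between ssp and dom. Gcsam differed by -0.94 ± 0.09 from dom (adjusted p = 2.90e-05) and by -0.45 ± 0.09 from mus (adjusted p = 0.0268); mus minus dom was -0.50 ± 0.09 (adjusted p = 0.00850).

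Ube2o, a large ubiquitin-conjugating enzyme, had levels from -0.37 to 0.38 in ssp (median -0.03), against -1.01 to -0.48 in dom (median -0.61) and -1.05 to -0.55 in mus (median -0.81). Lta, the cytokine lymphotoxin alpha, had levels from -0.08 to 0.31 in ssp (median 0.04), against -0.57 to -0.36 in dom (median -0.47) and -1.06 to -0.41 in mus (median -0.59). For both genes every ssp array lay above every dom and mus array, and the ssp arrays were those near the level of the C57BL6 pool. Ube2o differed by 0.65 ± 0.11 from dom (adjusted p = 0.00868) and 0.78 ± 0.11 from mus (adjusted p = 0.00210). Lta differed by 0.54 ± 0.09 from dom (adjusted p = 0.00750) and 0.73 ± 0.09 from mus (adjusted p = 0.000584), and like Ube2o it kept both calls in 18 of 18 runs. The olfactory receptor gene Olfr934 had levels from -0.36 to 0.52 in ssp (median 0.07), against -0.77 to -0.28 in dom (median -0.64) and -1.12 to -0.49 in mus (median -1.0). Its ssp arrays lay above all mus arrays and overlapped with dom, with differences of 0.66 ± 0.13 from dom (adjusted p = 0.0224) and 1.00 ± 0.13 from mus (adjusted p = 0.00103). For Bcl11a, Ube2o, Lta and Olfr934 the difference between mus and dom did not pass (adjusted p from 0.428 to 0.962).

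**Figure D1:**
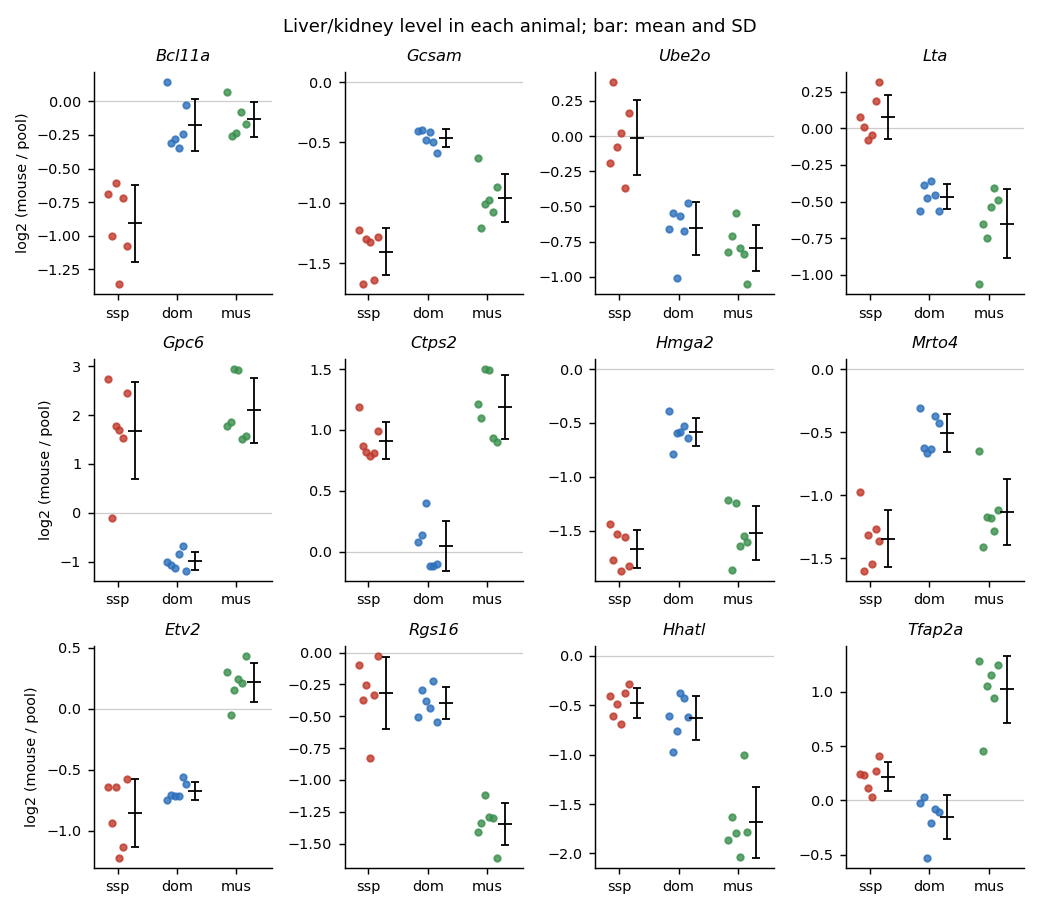
Level of 12 genes (log2 of mouse over pool, y axis) in each liver/kidney array of ssp, dom and mus (x axis, 6 points each, but 5 for Bcl11a in mus), with the group mean and SD as a black bar. In the top row the 6 ssp arrays of Bcl11a and Gcsam lie below, and those of Ube2o and Lta above, all dom and mus arrays; in the middle row ssp lies with mus apart from dom, and in the bottom row Etv2, Rgs16 and Hhatl of ssp lie near dom, while Tfap2a of ssp lies between dom and mus.

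A second set of genes differed between ssp and dom while ssp stood close to mus, and the largest was Gpc6, a glypican of the cell surface. The 6 ssp arrays ranged from -0.10 to 2.73 (median 1.74), against -1.19 to -0.69 in dom (median -1.04) and 1.52 to 2.94 in mus (median 1.81). No ssp array overlapped with dom, but 1 of them, ssp 02, lay far below the other 5. Gpc6 differed by 2.67 ± 0.36 from dom (adjusted p = 0.000880) and by -0.41 ± 0.36 from mus (adjusted p = 0.638), while mus minus dom was 3.08 ± 0.36. The other Gpc6 probe gave 0.24 ± 0.11 against dom. Ctps2, a synthase of the nucleotide CTP, ranged from 0.79 to 1.19 in ssp (median 0.85), against -0.12 to 0.40 in dom (median -0.01) and 0.90 to 1.5 in mus (median 1.16). It separated ssp from dom without overlap (0.87 ± 0.11, adjusted p = 0.000834) and was -0.28 ± 0.11 against mus (adjusted p = 0.269). Hmga2, a chromatin protein of growing tissue, ranged from -1.87 to -1.44 in ssp (median -1.66), against -0.79 to -0.39 in dom (median -0.59) and -1.87 to -1.21 in mus (median -1.58). Its ssp arrays lay below all dom arrays and among the mus arrays, with -1.08 ± 0.10 against dom (adjusted p = 2.90e-05) and -0.15 ± 0.10 against mus (adjusted p = 0.564). Mrto4, which acts in ribosome assembly, showed the same order, with -0.84 ± 0.12 against dom (adjusted p = 0.00148) and -0.21 ± 0.12 against mus. Prl7a1, of the prolactin family, was -0.68 ± 0.14 against dom (adjusted p = 0.0263) and 0.29 ± 0.14 against mus. For Gpc6, Ctps2, Hmga2, Mrto4 and Prl7a1 mus also differed from dom in the same direction (adjusted p from 2.17e-05 to 0.00850). The ssp and mus differences from dom use the same dom arrays, so they are not independent.

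Other genes higher in ssp than in dom were Serpina1b (1.28 ± 0.25), described with the other serpins below, Diaph1, a formin of the actin cytoskeleton (1.03 ± 0.18, adjusted p = 0.00793), Gria3, a subunit of AMPA glutamate receptors (0.92 ± 0.21, adjusted p = 0.0421), and Herc6, of the HERC ubiquitin ligase family (0.88 ± 0.16, adjusted p = 0.00952). Spock1, a proteoglycan also called testican, followed at 0.87 ± 0.11 (adjusted p = 0.000664), then Ap1m1 of the clathrin adaptor AP-1 (0.83 ± 0.19, adjusted p = 0.0398), the chromatin factor Cecr2 (0.83 ± 0.15, adjusted p = 0.0109) and the translation regulator Impact (0.82 ± 0.16, adjusted p = 0.0192). Spock1, Diaph1, Herc6, Cecr2 and Gria3 of ssp did not overlap with dom. Against mus none of the genes of this paragraph passed (limma adjusted p from 0.0793 to 0.809). The differences from mus were 0.19 ± 0.18 for Diaph1, 0.12 ± 0.16 for Herc6, 0.22 ± 0.15 for Cecr2 and 0.11 ± 0.16 for Impact. Mus was itself above dom for Gria3, Herc6, Diaph1 and Impact (adjusted p from 0.000803 to 0.0418). Gria3 had levels from -0.07 to 1.60 in ssp, against -0.49 to -0.09 in dom and 0.95 to 1.44 in mus, so the ssp animals spanned the range between the other groups. Its SD was 0.67 in ssp, against 0.16 in dom and 0.21 in mus. Second probes gave -0.01 for Diaph1, -0.07 for Gria3 and -0.08 for Cecr2, so these differences rest on single probes.

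Genes lower in ssp than in dom included Apex1, the main endonuclease of base excision repair (-1.09 ± 0.25, adjusted p = 0.0396), Tcirg1 of the vacuolar proton pump (-0.98 ± 0.22, adjusted p = 0.0385), the sperm tail protein gene Stpg1 (-0.97 ± 0.16, adjusted p = 0.00691), the ribosomal pseudogene Rpl29-ps1 (-0.87 ± 0.13, adjusted p = 0.00307) and the ciliary gene Rpgrip1 (-0.74 ± 0.18, adjusted p = 0.0496). Stpg1 ranged from -2.44 to -1.31 in ssp (median -1.82), against -1.30 to -0.62 in dom (median -0.84) and -1.76 to -1.04 in mus (median -1.25). Its ssp arrays lay just below dom and overlapped with mus, from which the difference was -0.58 ± 0.16 (adjusted p = 0.0987). The others did not pass against mus either: Apex1 differed by -0.18 ± 0.25, Tcirg1 by -0.25 ± 0.22, Rpl29-ps1 by -0.40 ± 0.13 and Rpgrip1 by -0.01 ± 0.18. Mus minus dom did not pass for these genes (limma adjusted p from 0.0624 to 0.458). A pseudogene such as Rpl29-ps1 resembles its parent gene, so part of its signal may belong to Rpl29. Of the genes named against dom, Rpgrip1 kept its call in 4, Ap1m1 in 7, Gria3 and Apex1 in 8 and Tcirg1 in 10 of 18 runs that left out 1 array.

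A further set differed between ssp and mus, with ssp closer to dom. Etv2, a transcription factor of blood vessel development, ranged from -1.22 to -0.58 in ssp (median -0.79), against -0.05 to 0.43 in mus (median 0.23) and -0.75 to -0.56 in dom (median -0.71). All ssp arrays lay below all mus arrays, at -1.07 ± 0.10 (adjusted p = 2.60e-05), and the difference from dom was -0.18 ± 0.10 (adjusted p = 0.373). Rgs16, a regulator of G-protein signalling, ranged from -0.82 to -0.03 in ssp (median -0.29), against -1.61 to -1.12 in mus (median -1.32) and -0.54 to -0.22 in dom (median -0.41). Its ssp arrays lay above all mus arrays (1.03 ± 0.11, adjusted p = 7.21e-05) and around the dom arrays (0.08 ± 0.11). Hhatl, a relative of hedgehog acyltransferase, showed the same order, at 1.21 ± 0.14 against mus (adjusted p = 0.000167) and 0.15 ± 0.14 against dom. Tfap2a, transcription factor AP-2 alpha, ranged from 0.03 to 0.41 in ssp (median 0.23), against 0.45 to 1.29 in mus (median 1.10) and -0.53 to 0.03 in dom (median -0.09). Here ssp lay between the other groups, with -0.81 ± 0.12 against mus (adjusted p = 0.00253) and 0.37 ± 0.12 against dom (adjusted p = 0.124). Bmp6, the signal by which liver endothelium reports iron stores, ranged from -0.56 to 0.33 in ssp (median -0.26), against 0.55 to 0.80 in mus (median 0.65) and -0.36 to 0.07 in dom (median -0.11). Every ssp array lay below every mus array (-0.87 ± 0.12, adjusted p = 0.00181), and the difference from dom was -0.10 ± 0.12. The cartilage collagen gene Col2a1 was also lower in ssp than in mus without overlap (-0.73 ± 0.11, adjusted p = 0.00329). Between mus and dom, Etv2, Rgs16, Hhatl, Tfap2a, Bmp6 and Col2a1 differed too (adjusted p from 2.55e-05 to 0.00212).

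Among the genes named against mus, the lowest was Ptpn22, a tyrosine phosphatase of lymphocytes (-1.09 ± 0.23, adjusted p = 0.0290). It ranged from -1.95 to -0.32 in ssp, against -0.71 to 0.70 in mus and -0.63 to -0.23 in dom, so the groups overlapped; the difference from dom was -0.77 ± 0.23 (adjusted p = 0.0945). Other genes lower in ssp than in mus were Lrrc8d, part of the anion channels that regulate cell volume (-1.04 ± 0.22, adjusted p = 0.0290), the olfactory receptor gene Olfr394 (-0.85 ± 0.16), the adhesion molecule gene Amigo1 (-0.72 ± 0.16) and Itfg1 (-0.70 ± 0.15). The second Lrrc8d probe gave -0.07 ± 0.06. Higher in ssp than in mus were St6gal1, the sialyltransferase that caps plasma glycoproteins in the liver (1.02 ± 0.17, adjusted p = 0.00501), the centriole gene Hyls1 (0.97 ± 0.12, adjusted p = 0.000480), the replication factor Mcm10 (0.80 ± 0.18, adjusted p = 0.0446), Ncdn (0.78 ± 0.16, adjusted p = 0.0272) and Hmg20b, a partner of the CoREST repressor complex (0.78 ± 0.13, adjusted p = 0.00847). The other St6gal1 probes gave 0.14, 0.04 and 0.13 against mus, and the second Mcm10 probe gave -0.01 ± 0.11. Against dom the genes from Ptpn22 to Hmg20b did not pass (limma adjusted p from 0.0522 to 0.961). Differences there were -0.11 for Olfr394, -0.16 for Amigo1, 0.02 for Itfg1, 0.34 for Hyls1 and 0.11 for Hmg20b. Mus minus dom passed for Lrrc8d, Hyls1, Hmg20b, Itfg1 and Olfr394 (adjusted p from 0.00079 to 0.0309). Of the genes named against mus, Amigo1 kept its call in 6, Mcm10 in 7, Ptpn22 in 11, Ncdn in 12, Lrrc8d in 13, and Itfg1 and Gcsam in 14 of 18 runs that left out 1 array.

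**Figure D2:**
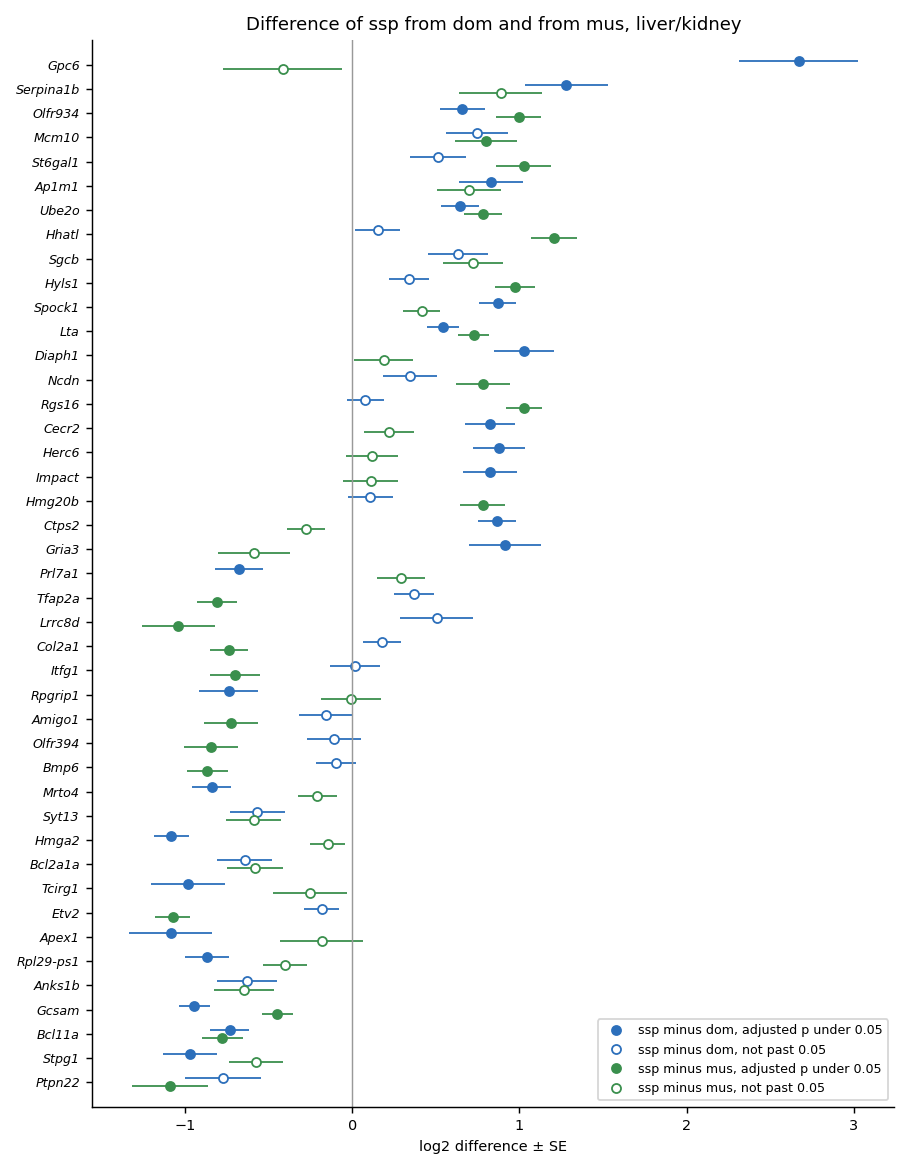
Difference of ssp from dom (blue) and from mus (green) on the log2 scale, ± SE (x axis), for the 43 genes with the largest called changes (y axis), ordered by the difference from the mean of both; filled points passed an adjusted p of 0.05. Gpc6 is far above 0 against dom and below 0 against mus, Etv2 far below 0 against mus alone, and Bcl11a is filled on both sides at -0.73 and -0.78.

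Setting ssp against the mean of dom and mus added genes that passed against neither group alone. Sgcb, a sarcoglycan of muscle membranes, was higher (0.68 ± 0.16, adjusted p = 0.0309), although its second probe gave 0.00 ± 0.06. Anks1b (-0.64 ± 0.16, adjusted p = 0.0468), the cell survival gene Bcl2a1a (-0.61 ± 0.14, adjusted p = 0.0367) and the synaptotagmin gene Syt13 (-0.58 ± 0.14, adjusted p = 0.0424) were lower. Anks1b ranged from -1.27 to 0.00 over the 5 ssp arrays with a value (ssp 01 had none), against -0.14 to 0.31 in dom and -0.03 to 0.15 in mus. Only part of these 5 ssp animals were low, with an SD of 0.58, against 0.18 in dom and 0.06 in mus. After group means were removed, Anks1b and Gria3 ran opposite to each other over the 17 arrays with both values (r = -0.809), and 19 of 2346 pairs of named genes had such an r beyond 0.75 in size. The calls of Anks1b, Bcl2a1a, Syt13 and Sgcb held in 4, 6, 5 and 10 of 18 runs that left out 1 array. Over all probes the median SD between animals was 0.133 in ssp, against 0.131 in dom and 0.120 in mus.

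Lists of liver and kidney genes were counted on 1 mean value per gene, with p-values adjusted over 14055 genes. By that count 210 genes were called against dom (1.49%), 171 higher (1.22%) and 39 lower (0.277%), 161 against mus (1.15%), 106 higher (0.754%) and 55 lower (0.391%) and 286 against the mean of both (2.03%), 235 higher (1.67%) and 51 lower (0.363%). Before adjustment, 1573 genes with p under 0.05 were higher than in dom and 880 lower. Against mus these counts were 1378 and 690, and against the mean 1708 and 865. Unadjusted counts within lists are to be read beside these, all out of 14055 genes. Among serpins, 2 of 22 tested passed against dom (Serpina1a and Serpina1b), 1 against mus (Serpina6) and 3 against the mean, all higher in ssp, while 1.67% of all genes were higher in the last comparison. The list's median difference from the mean was 0.04, against 0.00 over all genes.

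Serpina1a and Serpina1b are copies of the gene for alpha-1-antitrypsin, the plasma inhibitor of neutrophil elastase, and Serpina6 encodes the carrier of corticosteroids in blood. The promoters of the 2 copies are shown because they give a measure of how alike these neighbouring genes are. They run from 250 bases before to 50 after the start of each gene, 5′ to 3′ on the gene's minus strand, from RefSeq (GRCm38.p6), where 54 of the 69 genes named here had an entry. Capitals mark letters that differ or have no partner in an end-to-end alignment, in which 275 of 308 columns (89.3%) were identical.
Serpina1a, chr12:103863570-103863869: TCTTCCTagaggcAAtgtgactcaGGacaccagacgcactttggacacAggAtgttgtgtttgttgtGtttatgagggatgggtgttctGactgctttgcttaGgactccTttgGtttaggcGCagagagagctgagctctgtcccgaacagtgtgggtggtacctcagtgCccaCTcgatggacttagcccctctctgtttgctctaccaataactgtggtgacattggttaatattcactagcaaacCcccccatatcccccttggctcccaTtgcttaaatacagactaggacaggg
Serpina1b, chr12:103738140-103738439: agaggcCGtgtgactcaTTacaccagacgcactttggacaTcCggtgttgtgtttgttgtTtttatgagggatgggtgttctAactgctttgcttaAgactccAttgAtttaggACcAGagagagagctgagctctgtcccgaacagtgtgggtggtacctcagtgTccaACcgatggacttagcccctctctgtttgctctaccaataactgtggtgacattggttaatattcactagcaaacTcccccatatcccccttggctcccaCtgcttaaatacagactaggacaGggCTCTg
No probe sequences were used, so how far the probe of one copy also binds RNA of another was not tested, and values of the copies are uncertain to that extent.

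Serpina1b ranged from -0.22 to 1.43 in ssp (median 0.98), against -1.0 to 0.38 in dom (median -0.63) and -0.38 to 0.14 in mus (median -0.09). Serpina1a ranged from 0.35 to 1.12 in ssp (median 0.63), against -0.42 to 0.32 in dom (median 0.01) and -0.22 to 0.71 in mus (median 0.14). For Serpina1a all ssp arrays lay above dom, while for Serpina1b 2 ssp arrays, ssp 05 and ssp 06, overlapped with dom and the other 4 lay above it. Against dom the differences were 1.28 ± 0.25 for Serpina1b (adjusted p = 0.0154) and 0.74 ± 0.15 for Serpina1a (adjusted p = 0.0211). Against mus they were 0.89 ± 0.25 and 0.50 ± 0.15 and did not pass (adjusted p = 0.0852 and 0.121). The 3 other copies, Serpina1c, Serpina1d and Serpina1e, differed from the mean of dom and mus by 0.29 ± 0.18, 0.23 ± 0.17 and 0.20 ± 0.16, and none of these passed. Serpina6 was higher than in mus by 0.40 ± 0.08 (adjusted p = 0.0266) with no overlap, and by 0.26 ± 0.08 than in dom (adjusted p = 0.119).

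**Figure D3:**
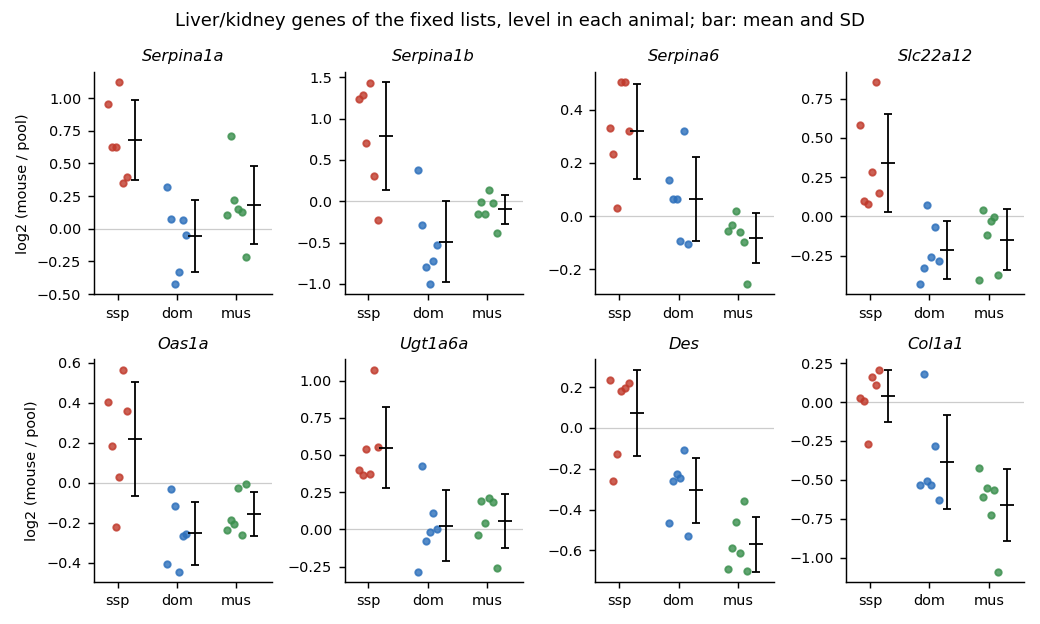
Level of 8 list members (log2 of mouse over pool, y axis) in each liver/kidney array of ssp, dom and mus (x axis, 6 points each), with the group mean and SD as a black bar. Serpina1a of ssp lies above all dom arrays, Slc22a12 of ssp above all dom and mus arrays, and Des and Col1a1 of ssp above all mus arrays.

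Among 39 kidney genes, 1 was called against dom and against the mean: Slc22a12, the urate transporter of the proximal tubule. It ranged from 0.08 to 0.85 in ssp (median 0.21), against -0.43 to 0.07 in dom (median -0.27) and -0.41 to 0.04 in mus (median -0.08). All ssp arrays lay above all others, by 0.56 ± 0.13 from dom (adjusted p = 0.0348) and 0.49 ± 0.13 from mus (adjusted p = 0.0681). The mean level of the kidney list ran from -0.04 to 0.10 in ssp, against -0.07 to -0.02 in dom and -0.03 to 0.03 in mus. Ssp was therefore the most variable group in the kidney list, and the part of this in the Slc22a12 difference was not tested. Umod, the main urine glycoprotein, was at 0.27 ± 0.10 against the mean (adjusted p = 0.166), Slc34a1, a phosphate transporter, at 0.02 ± 0.07 and Kap, an androgen-regulated tubule gene, at 0.53 ± 0.31.

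Plasma protein genes of hepatocytes had a mean level of 0.10 to 0.23 in ssp (median 0.14), against 0.15 to 0.33 in dom (median 0.19) and 0.09 to 0.18 in mus (median 0.13). The 3 groups overlapped. Of 40 such genes tested, limma called 0 against dom or mus (unadjusted, 6 and 5 had p under 0.05), and 1 was lower against the mean, Fgb, the beta chain of fibrinogen (-0.31 ± 0.08, adjusted p = 0.0443). Albumin (Alb) was at -0.10 ± 0.07. Of 23 hepatocyte enzymes 0 were called in any of the 3 comparisons (1, 2 and 2 unadjusted). Among 45 cytochrome P450 genes 0 were called against dom or mus (13 and 10 unadjusted), and Cyp2a5, a coumarin hydroxylase, was lower against the mean (-0.39 ± 0.10), just under the threshold. Its duplicate spots gave -0.61 and -0.17, neither of which passed alone (adjusted p = 0.169 and 0.246). Among 39 conjugation enzymes, Ugt1a6a, a glucuronosyltransferase, was higher than in dom (0.52 ± 0.12, adjusted p = 0.0408) and the mean (0.51 ± 0.11, adjusted p = 0.0209), and Gsto1, a glutathione transferase, was lower than in mus (-0.35 ± 0.08, adjusted p = 0.0418). Of 17 cholesterol synthesis genes 0 were called in any comparison (2, 1 and 1 unadjusted), and of 36 fatty acid genes 1, Acadl, a dehydrogenase of fatty acid oxidation, was lower than in mus (-0.31 ± 0.07, adjusted p = 0.0409).

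The major urinary protein genes Mup2, Mup3 and Mup5 stood 0.44 to 0.80 above dom and mus, but 0 of the 3 passed (adjusted p from 0.463 to 0.751). Their mean level ran from -0.74 to 1.57 in ssp, against -1.13 to 1.59 in dom and -1.59 to 1.68 in mus. The spread within each group was wider than any difference between groups, and the probes of these near-identical genes may share signal.

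**Figure D4:**
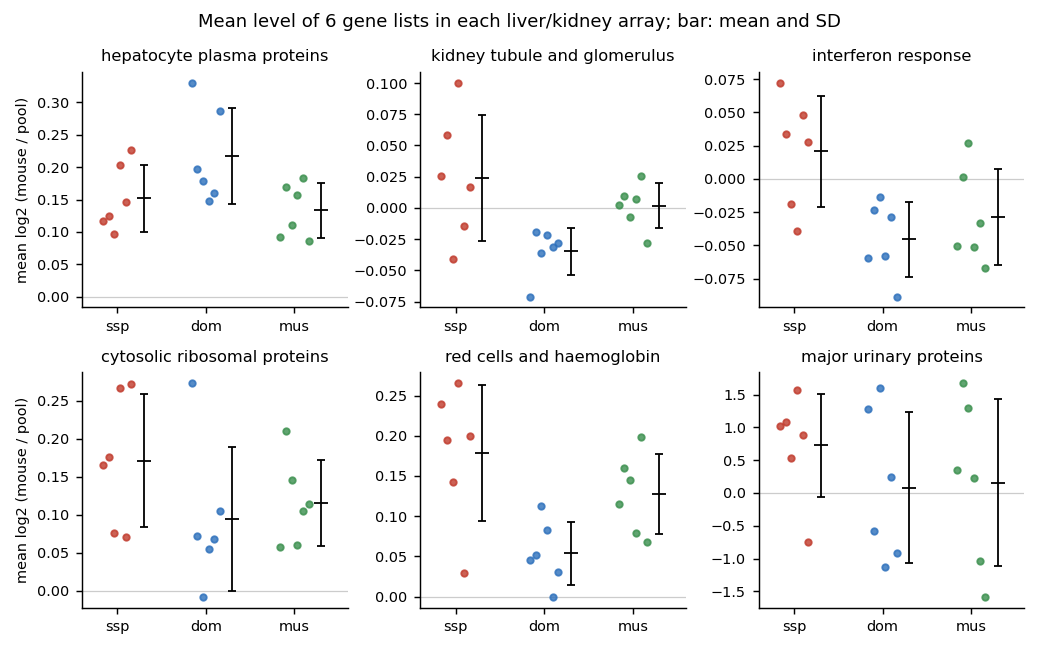
Mean level of 6 gene lists (log2 of mouse over pool, y axis) in each liver/kidney array of ssp, dom and mus (x axis, 6 points each), with the group mean and SD as a black bar. The groups overlap in all 6 lists. The red cell mean has its highest group median in ssp (0.20, against 0.05 in dom and 0.13 in mus), though ssp 05 stands at 0.03 and 5 of the 9 genes are above 0 against dom and against mus. Major urinary proteins span over 2 log2 units within each group.

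Interferon response genes had 3 of 33 members called higher against the mean of dom and mus and 0 lower. These were Oas1a, a sensor of viral RNA (0.42 ± 0.09, adjusted p = 0.0240), Ifi35 (0.38 ± 0.09, adjusted p = 0.0358) and the chemokine gene Cxcl10 (0.29 ± 0.07, adjusted p = 0.0395). Against dom Oas1a alone passed (0.47 ± 0.11, adjusted p = 0.0348), and against mus limma called 0, while 7 had an unadjusted p under 0.05. Ifi35 of ssp lay above all dom and mus arrays, and ssp 05 stood far above the other ssp arrays. Mx2, at 0.44 ± 0.12, was as high as these but missed the threshold (adjusted p = 0.0520). Other well-known members were not higher: Isg15 was at -0.06 ± 0.05, Ifit1 at -0.03 ± 0.06 and Irf7 at -0.31 ± 0.22, and the list's median was 0.00. Unadjusted, 9 of the 33 were higher than the mean with p under 0.05 and 0 lower, beside 1708 and 865 of all 14055 genes. Of 22 MHC genes, H2-Aa, an antigen-presenting class II chain, was higher than in mus (0.32 ± 0.07, adjusted p = 0.0275) on the mean of 2 probes that each pointed that way, and H2-Ob, a class II chain of B cells that tempers peptide loading, was lower than in dom (-0.33 ± 0.07, adjusted p = 0.0362).

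Markers of other cells that the mixture could hold gave few calls. Des, an intermediate filament of muscle and stellate cells, was higher than in mus (0.64 ± 0.09, adjusted p = 0.00216), dom (0.38 ± 0.09, adjusted p = 0.0489) and the mean, and Col1a1, of fibrillar collagen, was higher than in mus (0.70 ± 0.13, adjusted p = 0.0124), while the other 19 of 21 genes of endothelial and stellate cells passed in none of the 3 comparisons. Des and Col1a1 did not stand for that list: 9 of its 21 genes stood above 0 against dom, 9 against mus and 8 against the mean. The list's median differences were -0.02, -0.02 and -0.03. The bile duct keratin Krt19 was higher than the mean (0.52 ± 0.13, adjusted p = 0.0453), 1 of 7 bile duct genes. The mean level of the bile duct list, which includes Krt19, ran from -0.04 to 0.09 in ssp (median 0.01), against -0.18 to 0.00 in dom (median -0.08) and -0.25 to 0.00 in mus (median -0.11). Gene by gene, 3 of the 7 stood above 0 against dom (median difference -0.001) and 5 against mus (median difference 0.11), so the list did not rise as a whole against dom. Of 17 pancreatic genes Prss3, a trypsin, was higher than in dom (0.68 ± 0.15, adjusted p = 0.0309) and Prss1 higher than in mus (0.37 ± 0.08, adjusted p = 0.0383). The mean of the pancreatic list, which includes Prss3 and Prss1, ran from -0.03 to 0.10 in ssp (median 0.055), against -0.10 to 0.01 in dom (median -0.02) and -0.04 to 0.05 in mus (median 0.02). Of its 17 genes, 10 stood above 0 against dom (median difference 0.05) and 8 against mus (median difference -0.02). Of 17 macrophage, 20 lymphocyte, 9 red cell, 11 adrenal and 9 adipose genes 0 passed in any comparison by limma. Unadjusted, 3 of the 9 red cell genes were higher than in dom, and the mean of that list ran from 0.03 to 0.27 in ssp, against 0.00 to 0.11 in dom and 0.07 to 0.20 in mus. The part of blood or connective tissue in the differences above was not tested.

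Among complexes, ribosomal protein genes had 2 of 63 members called higher than in dom, Rpl6 (0.61 ± 0.14, adjusted p = 0.0362) and Rpl28 (0.39 ± 0.09, adjusted p = 0.0352), and 2 higher than the mean, Rpl6 and Rpl10a. Their median difference from the mean was 0.06. Of 70 genes of oxidative phosphorylation, Ndufv3 of complex I was higher than in mus (0.59 ± 0.13, adjusted p = 0.0302) and Cox8a of cytochrome c oxidase lower (-0.41 ± 0.09, adjusted p = 0.0348). Of 44 proteasome genes, Psmd8 of the regulatory particle was lower than the mean (-0.54 ± 0.13, adjusted p = 0.0425) and the activator gene Psme4, with values on 5 dom arrays, higher (0.32 ± 0.08), just under the threshold. The clock repressor Bhlhe40 was higher than in dom (0.44 ± 0.10, adjusted p = 0.0418), 1 of 14 clock genes. Heat shock, immediate early and acute phase genes had 0 of 34, 0 of 25 and 0 of 16 called by limma in each of the 3 comparisons, and 2 to 3, 2 to 4 and 1 to 6 with p under 0.05 before adjustment.

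Many calls of list members depended on single arrays or on the number of tests. With p-values adjusted over probes in place of genes, Krt19 (adjusted p = 0.0501), Rpl10a (0.0540), Cyp2a5 (0.0548) and Psme4 (0.0553) did not pass against the mean, nor did Des against dom (0.0542). By that adjustment, Des and Col1a1 passed against mus and against the mean in 18 of 18 runs that left out 1 array, as did Ugt1a6a against the mean. Against the mean Cyp2a5 passed in 1 such run, Fgb and Psme4 in 2, Krt19 and Rpl10a in 3, Cxcl10 and Psmd8 in 5 and Ifi35 in 7, and the other members called there in 14 to 17. Against dom Des passed in 3, Bhlhe40 in 4, Rpl6 and Ugt1a6a in 6, H2-Ob in 7, Oas1a and Rpl28 in 9, Slc22a12 in 10, Prss3 in 12, Serpina1a in 14 and Serpina1b in 17. Against mus Acadl passed in 4, Gsto1 in 5, Prss1 in 8, Cox8a in 9, Ndufv3 in 10, Serpina6 in 11 and H2-Aa in 12.

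Brain and testis arrays with the same group and number in their titles were taken as the same animals, which is an assumption. On it, the ssp difference from the mean of dom and mus could be compared between tissues within animals. For liver/kidney minus testis 81 of 21496 probes were called (0.377%), 67 higher and 14 lower. Among the 69 named genes 10 passed, and among these Olfr934 showed the widest gap: 0.83 ± 0.12 in liver/kidney and -0.19 ± 0.17 in testis, a difference between tissues of 1.01 (adjusted p = 0.0210). The named genes were chosen for called liver/kidney differences, and the tissue test uses those values again. The choice favours wide gaps, so the number of named genes passing does not measure how tissue-specific the ssp differences are. Ube2o was at 0.71 ± 0.10 in liver/kidney and 0.04 ± 0.09 in testis, Hyls1 at 0.66 ± 0.10 and -0.02 ± 0.10, and Rpl29-ps1 at -0.63 ± 0.11 and -0.03 ± 0.09. Serpina1b was at 1.08 ± 0.21 in liver/kidney, 0.05 ± 0.08 in brain and 0.01 ± 0.08 in testis, and the tissue difference missed the threshold (adjusted p = 0.0629 against testis). For liver/kidney minus brain limma called 0 of 21499 probes (0%), and 2013 had p under 0.05 before adjustment, so no named gene was shown to differ between those tissues. In brain Herc6 was at 0.57 ± 0.10 (adjusted p = 0.0330) and Cecr2 at 0.45 ± 0.08 (adjusted p = 0.0373), beside 0.50 ± 0.13 and 0.52 ± 0.13 in liver/kidney. Gpc6 was at 1.58 ± 0.34 in brain (adjusted p = 0.0710) and 0.43 ± 0.22 in testis, beside 1.13 ± 0.31 in liver/kidney. The brain array of mus 08 is titled mus, but its channel label names domesticus, and it was kept in mus. Without it, an alternative chosen after seeing the data, the brain differences were 0.57 ± 0.11 for Herc6 (adjusted p = 0.0566), 0.44 ± 0.09 for Cecr2 (adjusted p = 0.0585) and 1.56 ± 0.35 for Gpc6 (adjusted p = 0.125), so the sizes held and neither Herc6 nor Cecr2 passed. On 5 brain and 3 testis arrays the pattern of missing spots was another one. The brain arrays were ssp 04, 05 and 06 and mus 05 and 07, with no dom array, so in brain the pattern was unbalanced between groups. The part of this in the brain differences of Herc6, Cecr2 and Gpc6 was not tested. With animals of 1 pattern alone, limma called 0 probes against brain and 19 against testis, and of the 10 genes Hyls1 and Des kept their call against testis. The differences between liver/kidney and testis were then 0.54 to 1.04 for the 9 genes above 0 and -0.58 for Rpl29-ps1, close to those with all animals (0.56 to 1.01 and -0.61), with an adjusted p from 0.0504 to 0.0894 for the 8 genes that no longer passed.

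**Figure D5:**
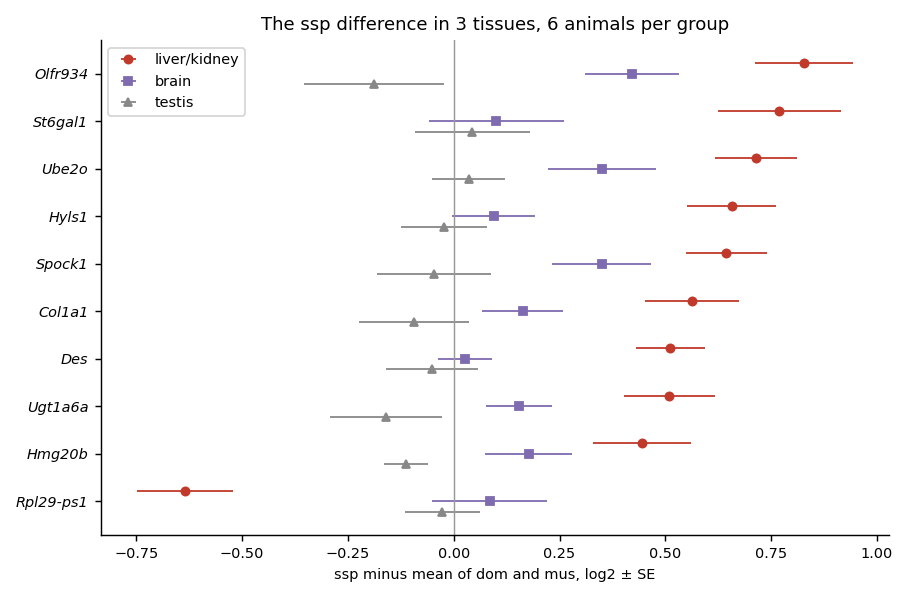
Difference of ssp from the mean of dom and mus on the log2 scale, ± SE (x axis), in liver/kidney, brain and testis for the 10 named genes whose liver/kidney difference departed from that in testis (y axis). In liver/kidney 9 genes lie above 0 and Rpl29-ps1 lies at -0.63, while testis values lie between -0.19 and 0.04.

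Position was compared with the background of all genes. In the gene order of RefSeq, 12 of the 286 genes called against the mean (4.2%) had a called gene as their nearest measured neighbour, against 4.04% of all 14019 genes placed. The pairs were Nr2f1 and 5430425K12Rik, Mfsd5 and Pfdn5, Rpl10a and Tead3, Stk35os1 and Tgm3, Gpr3 and Cd164l2, and Art3 and Cxcl10, named after their values were seen. In spot order on the array, 4.08% of called probes had a called neighbour, against 3.15% of all probes. Of 989 genes with more than 1 probe, 31 had a probe called against the mean, 16 of these had all probes on the same side, and only 2 had every probe called. Calls were therefore mostly not shared by all probes of a gene. How many genes would have all probes on the same side if probes varied apart was not worked out.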

How the data were processed

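The values used are log ratios processed and deposited by the authors, taken here as log2 of mouse over pool; their base, direction, scanner, background correction and normalisation are not stated in the sources used here. Per the labels, groups and animal numbers come from the array titles. Of 46128 spots, 22320 neighbouring duplicates gave 1 mean each, the 1488 unpaired spots ending each row were left out, and 232 Gapdh pairs became 1 probe. Of 22089 probes, 15801 had 1 symbol in the platform annotation, 294 had several and 5994 were not listed and stay unnamed; 15601 Entrez identifiers were found in RefSeq (GRCm38.p6) and 0 symbols needed updating. Coordinates of genes are not given, since the array's build is not stated.

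Arrays were centred on their median. In R 4.3.3 (with the package data.table, version 1.17.8), lmFit and eBayes of limma 3.58.1 fitted probes with at least 2 values per group, the 3 groups sharing 1 estimate of spread; p-values are two-sided and Benjamini-Hochberg adjusted. Tissue differences were fitted on each animal's liver/kidney value minus its brain or testis value. Number of arrays limits the precision. On simulated data, changes of 0.5 were recovered at 83% (ssp minus dom), 82% (ssp minus mus) and 90% (ssp minus the mean) and changes of 1 at 97%, 98% and 98%, over 21499 probes. False calls there were 11 of 191, 11 of 191 and 15 of 203. The simulated noise was normal and independent between probes and arrays, so recovery on the real arrays can differ. Figures were drawn with matplotlib 3.10.9 from Python 3.11.15 (numpy 2.4.6, pandas 2.3.3).

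Named genes are the 10 largest called log2 differences in each direction per comparison, 1 probe a gene (smallest p), without RIKEN, Gm, expressed sequence, LOC or accession names, and up to 3 called members of each gene list with the smallest p. Other genes (Alb, Umod, Slc34a1, Kap, Isg15, Ifit1, Irf7, Mx2, Serpina1c, Serpina1d, Serpina1e, Mup2, Mup3, Mup5 and the neighbouring pairs) were chosen after their values were seen. The members, lists and tests were chosen with earlier results of these data known. Named genes carry p-values adjusted over 21499 probes, and list members p-values over 14055 genes. Animals of different groups share only a number: over liver/kidney, deviations of same-numbered animals correlated with r from -0.104 to 0.139 (10 pairs, median -0.0606), against -0.219 to 0.27 for 98 other pairs.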

Additional observations from a re-analysis of the deposited data

Results flagged for a closer look

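Of 207 groups of 5 or 6 arrays (69 genes in ssp, dom and mus), 11 held an array far from its group by Dixon's test, 6 in ssp, 3 in dom and 2 in mus; chance gives about 1 in 20 groups. In ssp, Fgb was lowest on ssp 06 (-0.50, next -0.10), Hyls1 on ssp 02 (-0.95, next -0.45), Itfg1 on ssp 04 (-0.87, next -0.25) and St6gal1 on ssp 03 (-0.67, next -0.10). Ifi35 was highest on ssp 05 (0.92, next 0.31), as was Ugt1a6a (1.07, next 0.55). In dom, Col2a1 was highest on dom 03 (0.60, next 0.02), St6gal1 was highest on dom 03 (-0.22, next -0.63) and Diaph1 lowest on dom 01 (-1.24, next -0.66). In mus, Col2a1 was highest on mus 04 (1.29, next 0.95) and Ncdn highest on mus 07 (-0.36, next -1.10).

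The ssp difference from the mean of dom and mus departed from that in testis for 10 named genes by the within-animal limma test. These genes were named for their liver/kidney differences, which the test uses again, so the choice favours such gaps. The liver/kidney difference minus the testis difference was 0.66 for Col1a1 (adjusted p = 0.0379), 0.56 for Des, 0.56 for Hmg20b, 0.69 for Spock1 and 0.67 for Ugt1a6a (adjusted p = 0.0398 each), 0.68 for Hyls1 (adjusted p = 0.0147), 1.01 for Olfr934 (adjusted p = 0.0210), 0.73 for St6gal1 (adjusted p = 0.0412), 0.68 for Ube2o (adjusted p = 0.0408) and -0.61 for Rpl29-ps1 (adjusted p = 0.0229). Testis RNA of dom 01, mus 07 and mus 08 was on arrays with another pattern of missing spots. Without those 3 animals the difference was 1.04 for Olfr934, 0.73 for Hyls1, 0.72 for St6gal1, 0.67 for Ugt1a6a and Spock1, 0.65 for Col1a1 and Des, 0.61 for Ube2o, 0.54 for Hmg20b and -0.58 for Rpl29-ps1, and Hyls1 and Des alone passed (adjusted p = 0.00809 and 0.0212).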

How the results depend on the processing

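The 237 (dom), 199 (mus) and 343 (mean) calls, and 81 against testis, moved by over 1.5 times under several alternatives. With the spread of only the 2 groups compared they were 106 (dom) and 97 (mus), with second spots alone 120, 89 and 137 (mean), with first spots alone 79 (mus) and 195 (mean), and with array weights 330 (mus). No paired design exists, as the animals share only a number; with a replicate block on it, counts were 1, 8 and 6, and 0 against testis. Leaving out 1 array at a time gave 73 to 437 (dom), 76 to 334 (mus), 126 to 618 (mean), 0 to 1 against brain (1 without ssp 02) and 5 to 333 against testis (5 without ssp 02, 333 without ssp 03). Against dom the count was 73 without dom 01, 83 without dom 06, 103 without dom 13, 118 without ssp 01, 151 without ssp 05, 410 without dom 03 and 437 without ssp 03. Against mus it was 76 without mus 08, 79 without mus 02, 89 without mus 04, 99 without mus 05, 122 without ssp 06, 124 without mus 07 and 334 without ssp 03. Against the mean it was 126 without ssp 04, 145 without ssp 01, 153 without ssp 05, 214 without ssp 06, 223 without dom 06 and 618 without ssp 03. The testis count was 24 without pairing by animal, 47 with quantile normalisation, and 19 with animals of 1 missing-spot pattern, an alternative chosen after seeing the data. Over the alternatives run, 0 named differences changed sign, which was likely in advance, as large differences were refitted on the same arrays. Of 98 named differences, 10 held and 88 were weaker with the replicate block. With second spots alone 59 held and 39 were weaker, and with the spread of only the groups compared 68 and 29. Over runs that left out 1 array, 1362 of 1764 held and 390 were weaker. The causes of these shifts were not tested. Limits are 6 animals a group, arrays of 1 male each with no technical repeat, a ratio scale with unstated processing, and named genes resting mostly on 1 probe. Of the named genes with another probe, H2-Aa alone had one that also passed (limma adjusted p = 0.0463 against the mean).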
